A study of Mus musculus with 2 samples.

Results

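The genes described here are the ligands and receptors that steer growing axons, in the cerebral cortex of aged mice. The rule that picks them reads gene names and no measured value: ephrins (Efn), Eph receptors, semaphorins of classes 3 to 7 (Sema), plexins (Plxn), neuropilins (Nrp), Slits, Robos, netrins (Ntn), Unc5 receptors and Dcc, each with at least 1 protein_coding transcript. The rule took 69 of the 55536 genes in the tables, 35 ligands and 34 receptors. By system there were 22 ephrin and Eph genes, 31 semaphorin, plexin and neuropilin genes, 7 Slit and Robo genes and 9 netrin, Dcc and Unc5 genes.

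The tissue was the left cerebral cortex of aged females of B6CASTF1/J, a first-generation cross of C57BL/6J and CAST/EiJ, at 18 to 20 months of age, and total RNA was sequenced. There was 1 group of 2 libraries, called replicate 1 and replicate 2, each from 300 ng of input RNA plus spike-ins, and there was no treatment or second group. The biosamples were separate but carried the same donor entry, so it is not clear that they came from different animals, and the spread between them may be technical. Reads of this cross were placed on mm10, the genome of the C57BL/6J parent.

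Axon guidance proteins are read out at the growth cone, the moving tip of an axon, where a ligand on another cell or in the surrounding matrix engages a receptor and changes the actin cytoskeleton toward advance, turning or collapse. Ephrins are membrane-bound ligands of the Eph receptor tyrosine kinases, semaphorins signal through plexins with or without a neuropilin, Slits act through Robos, and netrins attract through Dcc and repel through Unc5 receptors. In adult cortex many of the same proteins sit at synapses, on glia and on blood vessels.

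The depth was 32504959 expected counts for replicate 1 and 24899781 for replicate 2. Markers of excitatory and inhibitory neurons, astrocytes, oligodendrocytes and their precursors, microglia, endothelium, mural cells, meningeal fibroblasts and red blood cells were all at 1 TPM or more in both libraries (TPM is the transcript level, read counts divided by transcript length and scaled to library size). Of the choroid plexus markers 2 of 4 reached 1 TPM, and of the cerebellar granule cell markers 0 of 3. The level of a gene in such a mixed tissue sums over all of these cells, and fewer cells of a type cannot be told apart from less RNA per cell.

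Nearly the whole guidance repertoire was detected in the aged cortex. Of the 69 genes, 66 reached 1 TPM in both libraries, where 58.3% of all nuclear protein-coding genes did. The median level over the 69 genes was 11 ± 0.665 TPM (SD, n = 2 libraries, as for every SD here), against 3.62 ± 0.0778 TPM over all 22015 nuclear protein-coding genes, and the median gene of the set lay at percentile 65.4 of them. Alignment-free values put the member median at 19 TPM, against 6.26 TPM for protein-coding genes, and rescaling TPM over protein-coding genes alone put it at 24.9 TPM. There were 34 guidance genes at 10 TPM or more in both libraries, a level that 35.9% of protein-coding genes reached, and 5 at 50 TPM or more, which 9.16% reached. Together the 69 genes held 0.264% of the protein-coding TPM in replicate 1 and 0.292% in replicate 2. The members ranged from 0.08 to 68.4 TPM in the mean. Unnamed pairs of values are those of replicates 1 and 2, in that order.

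**Figure D1:**
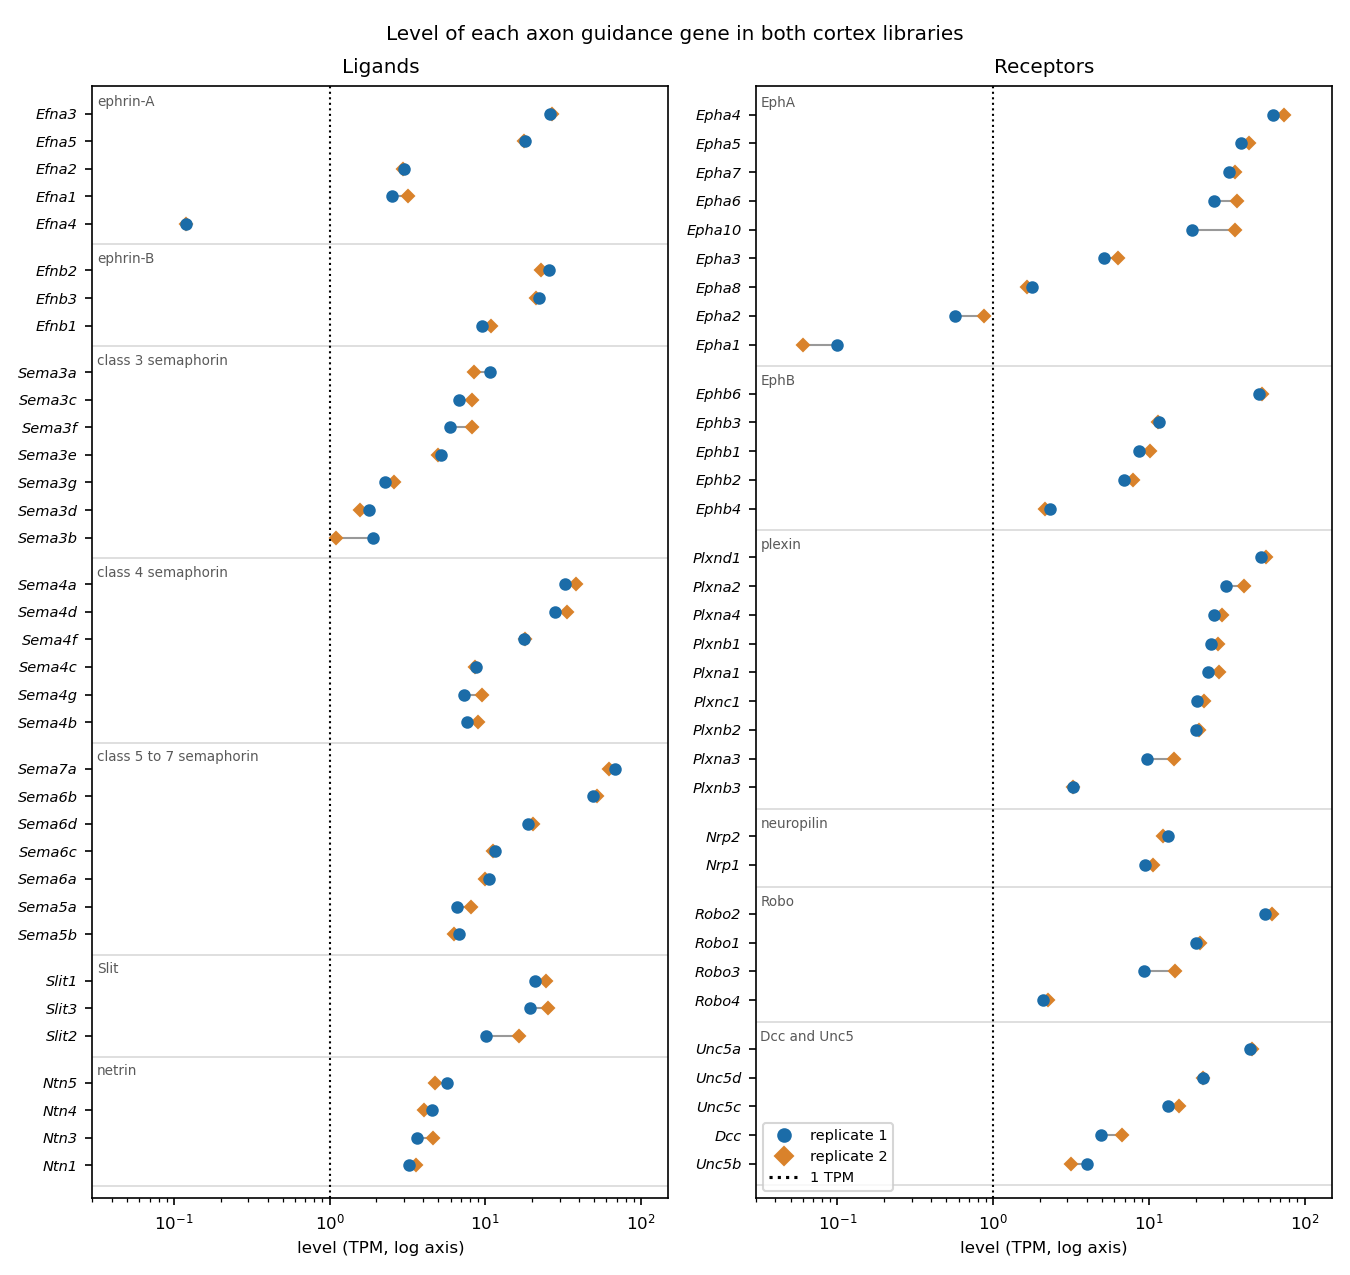
Level of each of the 69 axon guidance genes in TPM on a log axis, ligands on the left and receptors on the right, grouped by family and ordered by mean within it; circles are replicate 1 and diamonds replicate 2. Efna4, Epha1 and Epha2 lie left of the dotted line at 1 TPM, and Epha4 and Sema7a lie farthest right.

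The highest levels belonged to members of different systems. Epha4, an Eph receptor that binds ephrins of both types and acts at dendritic spines (chr1:77367185-77515088, minus strand, mm10), had 63.1 TPM in replicate 1 and 73.7 in replicate 2. Sema7a, a lipid-anchored semaphorin that signals through integrins and plexin C1 (chr9:57940112-57962865, plus strand), had 68.2 TPM and 62.7 TPM in replicates 1 and 2. The values of these genes overlapped, so their order is not set by these libraries. Robo2, a Slit receptor (chr16:73891839-74411825, minus strand), had 55.5 and 61.8 TPM, and both values lay below those of Sema7a. Plxnd1 followed with 52.7 and 56.6 TPM, Ephb6 with 51.0 and 53.2 TPM, Sema6b with 49.5 and 52.1 TPM and Unc5a with 44.5 and 46.2 TPM. Along the whole order of 69 genes, 14 of the 68 pairs of neighbours had library values that did not overlap. One such step lay between Sema6b and Unc5a, and another between Unc5a and Epha5.

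Among the ephrin-A ligands, which are tethered to the membrane by a lipid anchor, Efna3 and Efna5 stood well above the rest. Efna3 had 25.9 TPM in replicate 1 and 26.8 in replicate 2. Efna5, best known for setting topographic maps in the visual system, had 18.1 and 17.6 TPM. Efna1 had 2.50 and 3.18 TPM and Efna2 had 2.99 and 2.98 TPM, so each library placed both of them below Efna5 by more than 5-fold. Efna4 was at 0.12 TPM in both, from 4 and 3 counts.

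Efna1, Efna3 and Efna4 are neighbours on chromosome 3, on a stretch of mm10 that runs from chr3:89271733-89281142 (Efna1) through chr3:89313899-89322965 (Efna3) to chr3:89333390-89338028 (Efna4). The gaps between them are 32.8 kb and 10.4 kb. Their levels did not follow this closeness: the mean of Efna3 (26.4 TPM) was 9.28 times that of Efna1 and 220 times that of Efna4. With 3 counts in replicate 2, the ratio to Efna4 carries a wide counting error, and the interval that the deposited table gives for Efna4 in that library reached up to 0.302 TPM.

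The ephrin-B ligands cross the membrane and can signal back into the cell that carries them. Efnb2 had 25.7 TPM in replicate 1 and 22.9 in replicate 2. Efnb3 had 22.2 and 21.3 TPM, and Efnb1, on the X chromosome, had 9.46 and 10.9 TPM. Efnb2 and Efnb3 were each above Efnb1 in both libraries. The 3 proteins share a short tail inside the cell that docks PDZ-domain proteins, and the last 60 coding bases are shown to make that likeness visible in transcripts at these levels. They and all later sequences are GENCODE M21 coding bases, written 5′ to 3′ on the coding strand with mm10 coordinates; the stop codon is in capitals.
Efnb1-201, chrX:99147468-99147527, plus strand: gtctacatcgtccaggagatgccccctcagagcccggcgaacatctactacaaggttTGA
Efnb2-201, chr8:8620588-8620647, minus strand: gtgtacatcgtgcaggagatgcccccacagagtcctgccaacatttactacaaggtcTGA
Efnb3-201, chr11:69555860-69555919, minus strand: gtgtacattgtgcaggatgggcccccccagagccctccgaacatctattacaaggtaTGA
Of these 60 positions Efnb1-201 and Efnb2-201 had the same base at 52, and each of them matched Efnb3-201 at 49.

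The EphA receptors were the family with the widest range. Behind Epha4, Epha5 had 38.8 TPM in replicate 1 and 44.0 in replicate 2. Epha7 had 32.6 and 36.0 TPM, and Epha6 had 26.1 and 36.7 TPM. Epha5 lay above both, which overlapped. Epha10, whose kinase domain is catalytically inactive, had 18.9 TPM in replicate 1 and 35.7 in replicate 2, the widest split in TPM among the receptors above 1 TPM. Below these stood Epha3 (5.72 ± 0.82 TPM), Epha8 (1.71 ± 0.099 TPM) and Epha2 (0.72 ± 0.212 TPM). Epha1 had 0.10 and 0.06 TPM, from 7 and 3 counts. Zyx, a cytoskeletal gene on the opposite strand, shares 236 exon bases with Epha1 and had 958 and 699 counts. The counts of Epha1 were whole numbers, without the fractions that mark reads shared between genes. Whether reads of Zyx were counted for Epha1 was not tested. The strand setting of the counting is not given in the sources used here.

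Epha7 is known in mouse brain for short forms that keep the ephrin-binding part and the membrane anchor but end before the kinase domain. In the aged cortex these short forms took the larger share. Transcripts Epha7-202 and Epha7-204, with 1833 and 1881 coding bases, together held 62.0% of the Epha7 TPM in replicate 1 and 53.9% in replicate 2 of the alignment-based tables. The full-length transcripts Epha7-201 and Epha7-203, with 2997 and 2985 coding bases, held 28.2% and 27.8%. In the alignment-free tables, which start from unplaced reads, the short forms held 55.3% and 46.0% against 28.5% and 26.0% for the full-length forms. The short forms were above the full-length forms in all 4 tables. Short-read tables divide reads between transcripts by a model, so these shares are estimates.

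The forms share their first 1798 coding bases and then part. What follows in each is shown because it decides which receptor is made: a further coding exon in the full-length form, and a few codons with a stop codon (capitals) in the short ones.
Epha7-201, chr4:28947528-28947587, plus strand: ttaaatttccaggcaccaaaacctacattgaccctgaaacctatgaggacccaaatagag
Epha7-202, chr4:28946219-28946253, plus strand: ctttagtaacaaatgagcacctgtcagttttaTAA
Epha7-204, chr4:28966523-28966605, plus strand: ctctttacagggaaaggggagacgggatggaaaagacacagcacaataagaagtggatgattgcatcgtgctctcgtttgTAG
Neither short end continues straight from the last shared base in the genome. Whether the full-length transcripts also hold these bases in an untranslated part was not examined. That of Epha7-202 lies before the next full-length exon and that of Epha7-204 lies well behind it.

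Among the EphB receptors Ephb6, which also lacks kinase activity, led by a wide margin. It had 51.0 TPM in replicate 1 and 53.2 in replicate 2. Ephb3 had 11.7 and 11.4 TPM, Ephb1 had 8.67 and 10.2 TPM, Ephb2 had 6.88 and 7.88 TPM and Ephb4 had 2.33 and 2.16 TPM. Every EphB value lay above 2 TPM, and no value of the other members came near Ephb6. Epha1 and Ephb6 lie 738 kb apart on chromosome 6, and their means differed 651-fold, with Epha1 resting on the few counts given above.

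All 20 semaphorins were detected at 1 TPM or more in both libraries. The secreted class 3 members, the classical collapse factors for axons that carry neuropilins, were low, with a family median of 5.06 ± 0.141 TPM. Sema3a had 10.7 TPM in replicate 1 and 8.48 in replicate 2, Sema3c had 6.80 and 8.26 TPM, and Sema3f had 5.95 and 8.19 TPM. Sema3a lay above the other two in both libraries, and Sema3c and Sema3f overlapped. Sema3e, which binds plexin D1 without a neuropilin, had 5.16 and 4.96 TPM. Sema3g, Sema3d and Sema3b lay between 1.5 and 2.44 TPM in the mean.

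The membrane-spanning class 4 members were higher, with a median of 13.5 ± 0.4 TPM. Sema4a had 32.6 and 38.4 TPM. Sema4d, a ligand of plexin B1 known from oligodendrocytes and immune cells, had 28.1 and 33.3 TPM. Sema4a was above Sema4d in each library, though their ranges overlapped. Sema4f had 17.6 and 17.9 TPM and stood clear of the remaining members: Sema4c had 8.76 and 8.62 TPM, while Sema4g and Sema4b averaged 8.43 and 8.31 TPM. Within classes 5 to 7, Sema7a and Sema6b have been given above. Sema6d had 18.8 and 20.1 TPM and Sema6c had 11.5 and 11.2 TPM, while Sema6a, Sema5a and Sema5b lay between 6.54 and 10.2 TPM in the mean. Class 6 semaphorins are transmembrane ligands of A-type plexins.

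The plexins, receptors whose inner part acts on small GTPases, were all above 1 TPM, with a family median of 25.9 ± 2.55 TPM. Plxnd1, the receptor of Sema3e and known from blood vessels and from neurons, had 52.7 TPM in replicate 1 and 56.6 in replicate 2. Plxna2 had 31.3 and 40.8 TPM, Plxna4 had 26.2 and 29.3 TPM and Plxnb1 had 24.9 and 27.7 TPM. Plxnd1 was above the other plexins in both libraries and Plxna2 came next, while Plxna4 and Plxnb1 overlapped. Plxna1, Plxnc1 and Plxnb2 averaged 26.1, 21.5 and 20.6 TPM, Plxna3 averaged 12 TPM and Plxnb3 was the lowest at 3.27 TPM in both libraries.

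The neuropilins, which lend class 3 semaphorins their binding site and also bind VEGF, were at similar levels: Nrp2 had 13.3 and 12.3 TPM and Nrp1 had 9.43 and 10.7 TPM, with no overlap. Nrp2 is made with alternative membrane-proximal and inner parts known as the a and b forms. Transcripts with the coding end of Nrp2-205 held 44.1% of the Nrp2 TPM in replicate 1 and 40.5% in replicate 2 of the alignment-based tables, and those with the coding end of Nrp2-204 held 52.3% and 49.1%. The alignment-free shares were 45.5% and 42.2% for the first end and 52.4% and 49.6% for the second. Both ends were therefore present in like amounts, with that of Nrp2-204 higher in each table. The forms share their first 2425 coding bases, and their last 60 coding bases are shown because they have no common sequence; the stop codon is in capitals.
Nrp2-205, chr1:62795930-62795989, plus strand: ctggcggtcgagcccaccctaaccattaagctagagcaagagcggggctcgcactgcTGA
Nrp2-204, chr1:62815578-62815637, plus strand: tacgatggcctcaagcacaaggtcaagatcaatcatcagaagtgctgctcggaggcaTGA

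The Slits are large secreted repellents. Slit1 had 20.8 TPM in replicate 1 and 24.4 in replicate 2, Slit3 had 19.5 and 25.1 TPM and Slit2 had 10.1 and 16.5 TPM. Slit1 and Slit3 overlapped, and both were above Slit2 in each library. Slit1 came in a pair of forms of nearly equal level. Slit1-201, with 4596 coding bases, held 50.7% of the Slit1 TPM in replicate 1 and 43.2% in replicate 2 of the alignment-based tables, and Slit1-203, with 4377 coding bases, held 47.2% and 48.1%. In the alignment-free tables Slit1-201 held 46.1% and 41.8%, and Slit1-203 held 53.9% and 54.5%. Which of them led differed between the tables. The sequences show where they part: Slit1-203 reads on past the end of the shared exon and stops (the part it does not share, with its stop codon, in capitals), while Slit1-201 continues in the next exon and runs to the cysteine-rich end of the protein.
Slit1-203, chr19:41601469-41601528, minus strand: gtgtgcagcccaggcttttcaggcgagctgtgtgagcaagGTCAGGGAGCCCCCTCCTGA
Slit1-201, chr19:41600630-41600689, minus strand: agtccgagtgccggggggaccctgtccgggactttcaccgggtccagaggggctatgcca

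Of the Robos, Robo2 led and Robo1 had 20.1 TPM in replicate 1 and 21.4 in replicate 2. Robo3, which in mammals lets commissural axons cross the midline, had 9.32 and 14.8 TPM. Robo4, known from endothelium, had 2.08 and 2.25 TPM. No values of neighbouring Robos overlapped, so the order from Robo2 through Robo1 and Robo3 to Robo4 was the same in both libraries. Robo3 and Robo4 lie on chromosome 9 with 553 bases between them, and their means differed 5.56-fold. Robo1 and Robo2 lie 846 kb apart on chromosome 16, and the mean of Robo2 was 2.83 times that of Robo1.

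The netrins had a family median of 4.21 ± 0.187 TPM, below that of every other ligand family except ephrin-A (3.08 ± 0.134 TPM). Ntn5 had 5.68 TPM in replicate 1 and 4.75 in replicate 2, Ntn4, a basement membrane netrin, had 4.53 and 4.03 TPM, Ntn3 had 3.62 and 4.65 TPM and Ntn1, the classical chemoattractant, had 3.26 and 3.60 TPM. Ntn1 lay below the other netrins in both libraries, and Ntn4 and Ntn3 overlapped. Ntn5 lay above the rest in the gene table, but not in all tables of replicate 2: its posterior mean of 4.69 TPM was below the 4.76 TPM of Ntn3, and the alignment-free values put it at 8.09 TPM, under Ntn4 at 8.81 TPM and Ntn3 at 8.46 TPM. Ntn5 shares 23.4% of its exon bases with Sec1 on the opposite strand, which had 37.8 and 23.8 counts against 193 and 119 for Ntn5.

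Their receptors were higher. Unc5a, a repulsive netrin receptor that can also trigger cell death when it has no ligand, had 44.5 TPM in replicate 1 and 46.2 in replicate 2. Unc5d had 22.2 TPM in both libraries, Unc5c had 13.2 and 15.7 TPM, Dcc had 4.95 and 6.77 TPM and Unc5b, known from vessels, had 3.99 and 3.15 TPM. None of these neighbours overlapped, so the order from Unc5a to Unc5b was the same in both libraries.

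Unc5a was made mostly without 1 of its coding exons. Unc5a-202, which lacks it and has 2529 coding bases, held 84.1% of the Unc5a TPM in replicate 1 and 77.4% in replicate 2 of the alignment-based tables. Unc5a-201, which has it and 2697 coding bases, held 10.8% and 14.3%. In the alignment-free tables Unc5a-202 held 76.0% and 69.4% and Unc5a-201 held 19.3% and 22.3%. The form without the exon led in all 4 tables. The exon is 168 bases long, keeps the reading frame and is shown because its presence is the only difference between these coding sequences.
Unc5a-201, chr13:54997193-54997360, plus strand: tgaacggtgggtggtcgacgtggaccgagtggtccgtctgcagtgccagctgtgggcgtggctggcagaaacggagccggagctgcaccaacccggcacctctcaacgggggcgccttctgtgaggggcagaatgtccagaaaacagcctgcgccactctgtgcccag

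Efna5 showed the opposite balance for a skipped exon of 81 bases. Efna5-201, which holds the exon, took 68.9% of the Efna5 TPM in replicate 1 and 68.1% in replicate 2 of the alignment-based tables, and Efna5-202, which lacks it, took 31.1% and 31.9%. The alignment-free shares were 76.0% and 71.0% with the exon and 24.0% and 29.0% without it. The form with the exon led in all 4 tables. The annotated transcripts differ in more than the exon, since Efna5-201 has 4032 bases and Efna5-202 has 643. These are therefore shares of whole transcripts and do not measure use of the exon alone. The exon is given for the same reason as that of Unc5a.
Efna5-201, chr17:62613316-62613396, minus strand: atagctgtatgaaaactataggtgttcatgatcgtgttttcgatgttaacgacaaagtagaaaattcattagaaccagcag

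**Figure D2:**
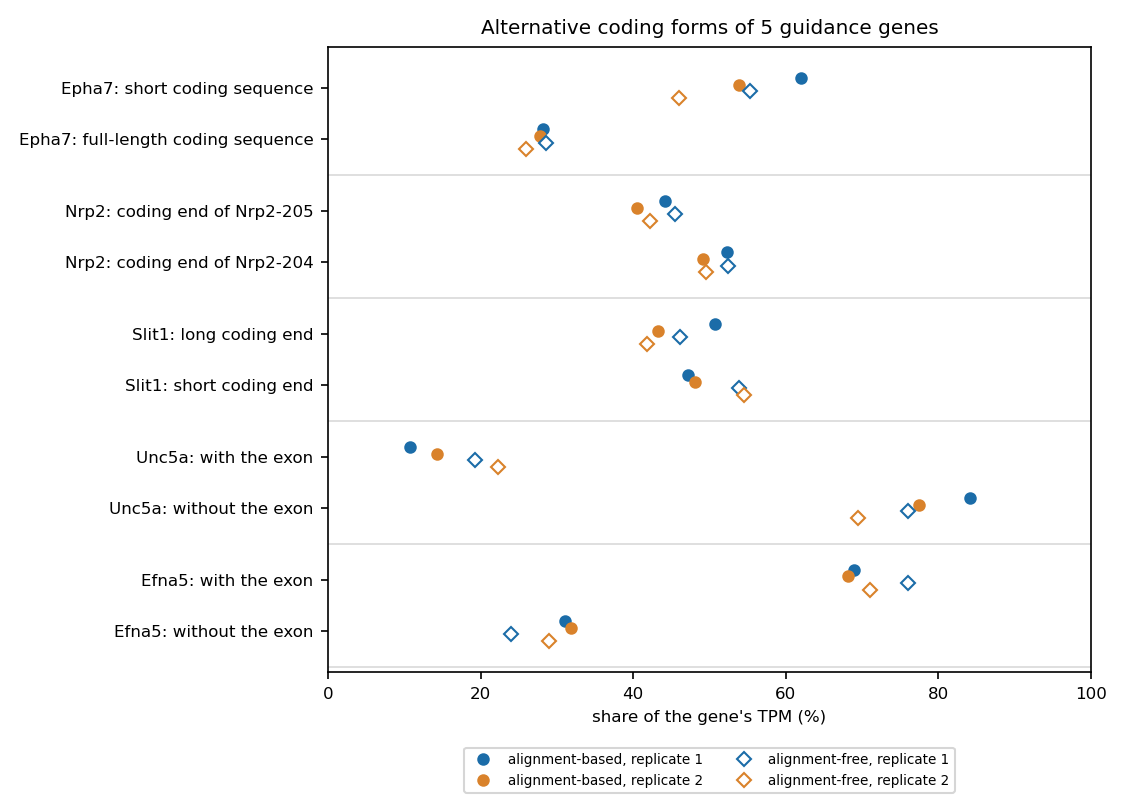
Share of each gene's TPM (percent, horizontal axis) held by the alternative coding forms of Epha7, Nrp2, Slit1, Unc5a and Efna5; filled circles are the alignment-based and open diamonds the alignment-free tables, in one colour per replicate. The forms of Epha7, Nrp2, Unc5a and Efna5 keep apart in all 4 tables, while the ranges of the Slit1 forms overlap.

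Leading transcripts could be compared for 62 guidance genes with 2 or more transcripts and 1 TPM or more in every table. In 47 of them, or 75.8%, the leader was the same transcript throughout, where 65.5% of 11631 protein-coding genes of that kind did so. The libraries disagreed on the leading transcript in both kinds of table for 0 genes. They differed in the alignment-based tables for 3 genes, Robo1, Robo4 and Slit1, and in the alignment-free tables for 11. No such counts over all protein-coding genes stand beside these, so they do not set the guidance genes apart. Sema3b was led by a nonsense_mediated_decay transcript, Sema3b-206, in the alignment-based tables of both libraries (56.8% and 47.3%), and by other transcripts in the alignment-free ones. With 102 and 48 counts for the whole gene, its isoform shares rest on few reads.

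Summed over genes, receptor RNA was above ligand RNA in 3 of the 4 systems. Eph receptors had 268 TPM in replicate 1 and 320 in replicate 2, against 107 and 106 TPM of ephrins. Netrin receptors had 88.8 and 94.0 TPM against 17.1 and 17.0 TPM of netrins, the largest excess, at 5.20-fold and 5.52-fold. Robos had 86.9 and 100 TPM against 50.3 and 66.0 TPM of Slits. Plexins and neuropilins were below their ligands, with 235 and 267 TPM against 309 and 322 TPM of semaphorins. The ratio of receptors to ligands in that system was 0.763 and 0.828, and it was 0.690 and 0.730 in the alignment-free tables. In no system did the receptor and ligand sums of the libraries overlap. These sums depend on the number of genes on each side and on their highest members. By the median gene, the direction turned in 3 of the 4 systems. A median gives little weight to the highest receptors, such as Epha4, Ephb6 and Robo2, so it is not the sum corrected for gene number. The median was 10.5 TPM over 14 Eph receptors against 14 TPM over 8 ephrins, 16.4 TPM over 4 Robos against 21.9 TPM over 3 Slits, and 21.5 TPM over 11 plexins and neuropilins against 8.5 TPM over 20 semaphorins. Only the netrin system kept its direction, with 14.4 TPM over 5 receptors against 4.21 TPM over 4 netrins. RNA levels say nothing of protein.

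**Figure D3:**
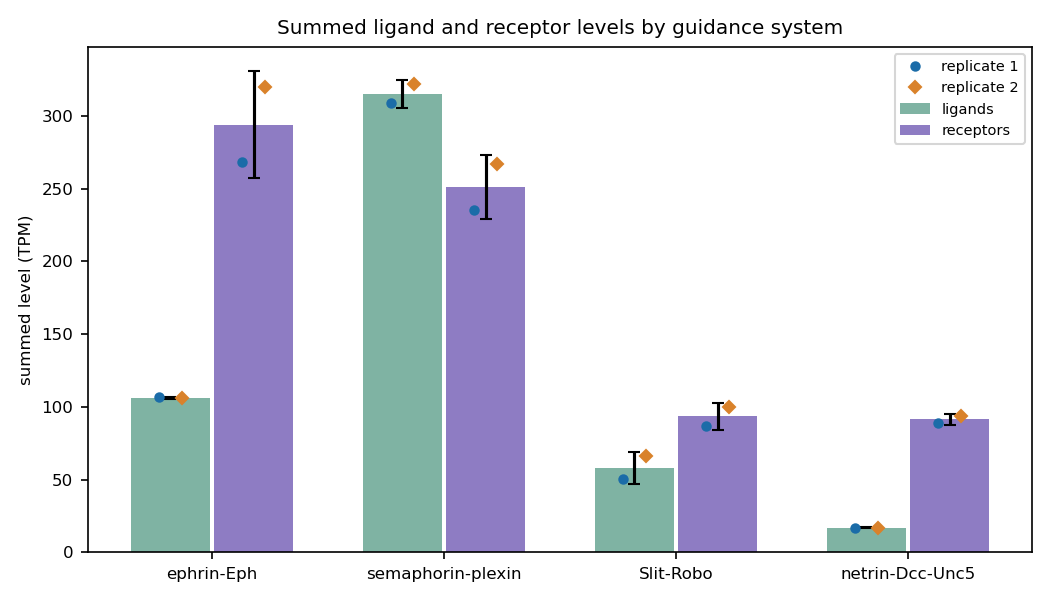
Summed TPM of ligands and receptors in each guidance system; bars are the mean of the 2 libraries with the SD, circles replicate 1 and diamonds replicate 2. The receptor sum stands above the ligand sum except in the semaphorin and plexin system; the sums run over unequal numbers of genes.

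None of the guidance genes compared was 2-fold apart between the libraries. Counts scaled with TMM, a factor that corrects library size for a few dominant genes, were compared for the 67 members whose mean count was at least 10, as the log2 ratio of replicate 1 over replicate 2. Of these, 0 were 2-fold or more apart, where 5.46% of all 18246 genes compared were. At 1.5-fold there were 3 members, Sema3b, Epha10 and Epha2, against 14.3% of all genes. Those shares include many genes of low count, which vary more. Among genes whose mean count was at least 100, 0 of 64 members were 2-fold apart and 1, Epha10, was 1.5-fold apart, where 1.03% and 3.77% of 12570 genes were. At that count depth, the numbers of members are thus close to what the shares give for 64 genes. Without it, they were below the shares of all genes. The median log2 ratio was -0.07 over the members and 0.00 over all genes, with 27 members higher and 40 lower in replicate 1. There is 1 library on each side, so no p-value is given. Each ratio has an exact 95% interval that covers counting error only. It lay wholly below 0 for 23 members and wholly above 0 for 7, and intervals lay on one side for 39.2% of all genes. The intervals of Epha2 (-1.52 to -0.15) and Sema3b (0.20 to 1.23) reached past 2-fold, so a 2-fold difference is within their counting error.

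Of all genes 1.5-fold or more apart, 74.8% were lower in replicate 1, and of the 3 members 2 were. Taking members whose mean count was at least 100, the log2 ratios furthest below 0 were those of Epha10 (-0.60, interval -0.70 to -0.50), Sema3f (-0.52, -0.76 to -0.29), Robo3 (-0.49, -0.62 to -0.35), Dcc (-0.41, -0.54 to -0.27) and Epha6 (-0.39, -0.49 to -0.30). Those furthest above 0 were Unc5b (0.38, 0.17 to 0.59), Ntn5 (0.31, -0.02 to 0.66), Sema3d (0.24, -0.05 to 0.54), Efnb2 (0.23, 0.14 to 0.32) and Nrp2 (0.20, 0.09 to 0.30). Of all genes at that depth, 3.68% were as far apart as Epha10 and 9.40% as far apart as Unc5b.

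**Figure D4:**
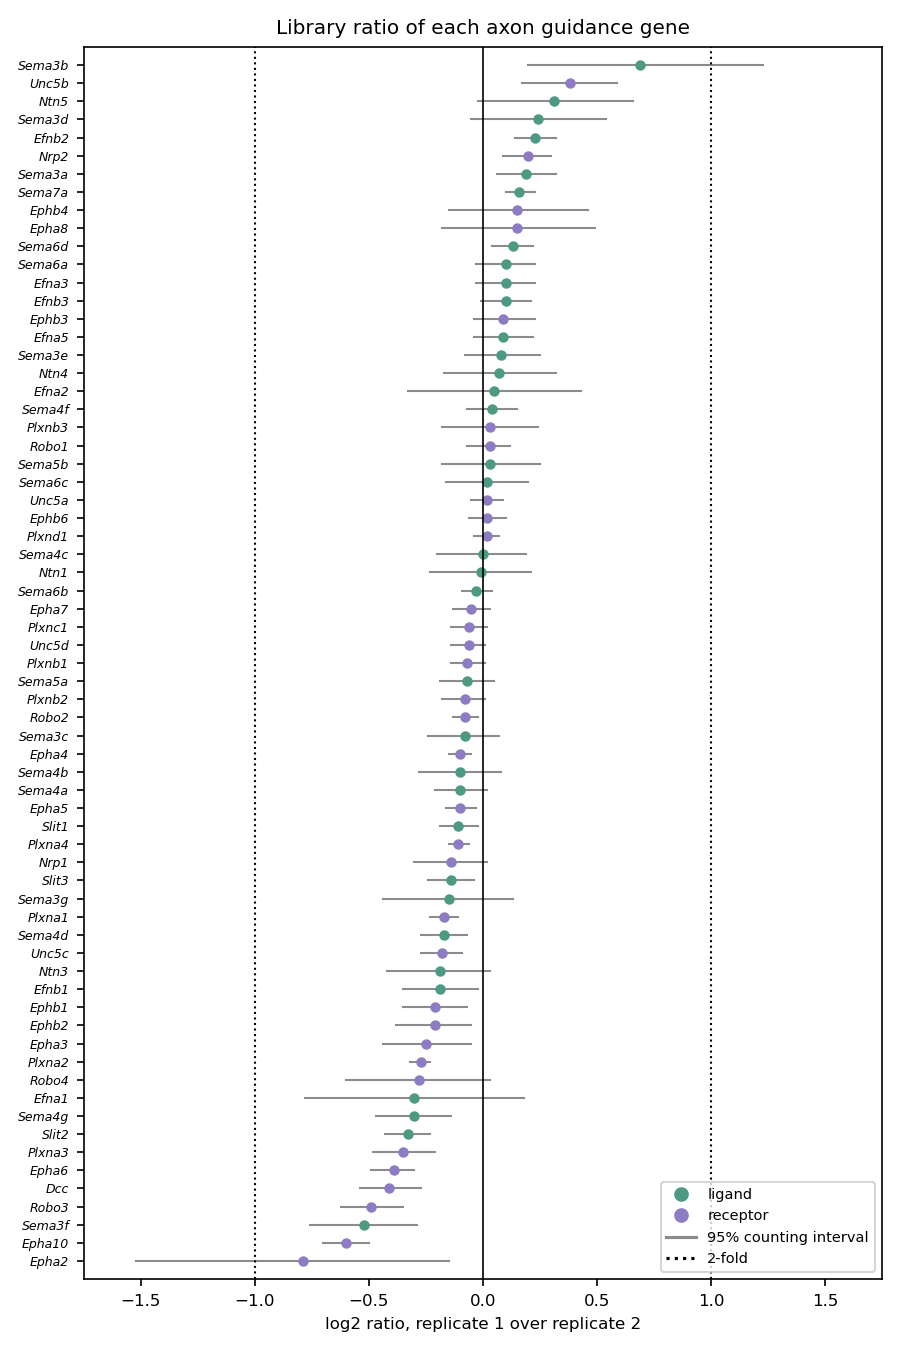
Log2 ratio of replicate 1 over replicate 2 for the 67 guidance genes compared, ordered by value; points are coloured by role and lines are exact 95% counting intervals. All points lie between the dotted lines at 2-fold, from -0.79 (Epha2) to 0.69 (Sema3b).

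Epha10 illustrates how a TPM difference and a count difference can part. Its counts were 1486 in replicate 1 and 1727 in replicate 2. Its TPM was 1.88 times as high in replicate 2, while the scaled counts differed 1.51-fold. The deposited gene table gave Epha10 an effective length of 3477 bases in replicate 1 and 2868 bases in replicate 2. In the alignment-based transcript tables the short processed_transcript Epha10-203 (705 bases) held 17.3% of its TPM in replicate 1 and 34.1% in replicate 2. The main coding transcript Epha10-202 had 12.1 TPM in replicate 1 and 17.7 in replicate 2. The alignment-free counts gave a log2 ratio of -0.54. Slit2 showed the same kind of gap, with effective lengths of 7410 and 5824 bases, a TPM ratio of 1.64 in favour of replicate 2 and a log2 count ratio of -0.33.

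Transcripts annotated as keeping an intron (retained_intron) were assigned a sizeable part of the TPM of several members. Transcripts of this class, which are not annotated as coding, existed for 44 of the members above 1 TPM in all tables. Their median share of the gene's TPM was 12.2% in replicate 1 and 14.5% in replicate 2 of the alignment-based tables. Over 7487 protein-coding genes with such a transcript it was 10.1% and 14.5%. In the alignment-free tables it was 10.5% and 14.8% for the members against 10.9% and 14.5% for those genes. The members were thus not higher in replicate 1 there. The highest alignment-based shares were those of Plxna3 (46.2% and 51.0%), Robo3 (40.0% and 48.8%) and Sema5b (42.2% and 46.7%). By alignment-free values Plxna3 (51.7% and 56.9%) and Sema4c (39.9% and 43.3%) were highest. The share was higher in replicate 2 for 39 of the 44 members, or 88.6%, in the alignment-based tables, where it was higher in 78.1% of all such genes. In the alignment-free tables it was higher for 37, or 84.1%, against 74.9% of all genes. These shares are estimates, and for some genes the kinds of table were far apart. Plxnd1 had 26.7% and 31.1% in the alignment-based tables and 5.69% and 17% in the alignment-free ones. The RNA was total RNA, and whether reads of unspliced RNA were counted for these transcripts was not tested.

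**Figure D5:**
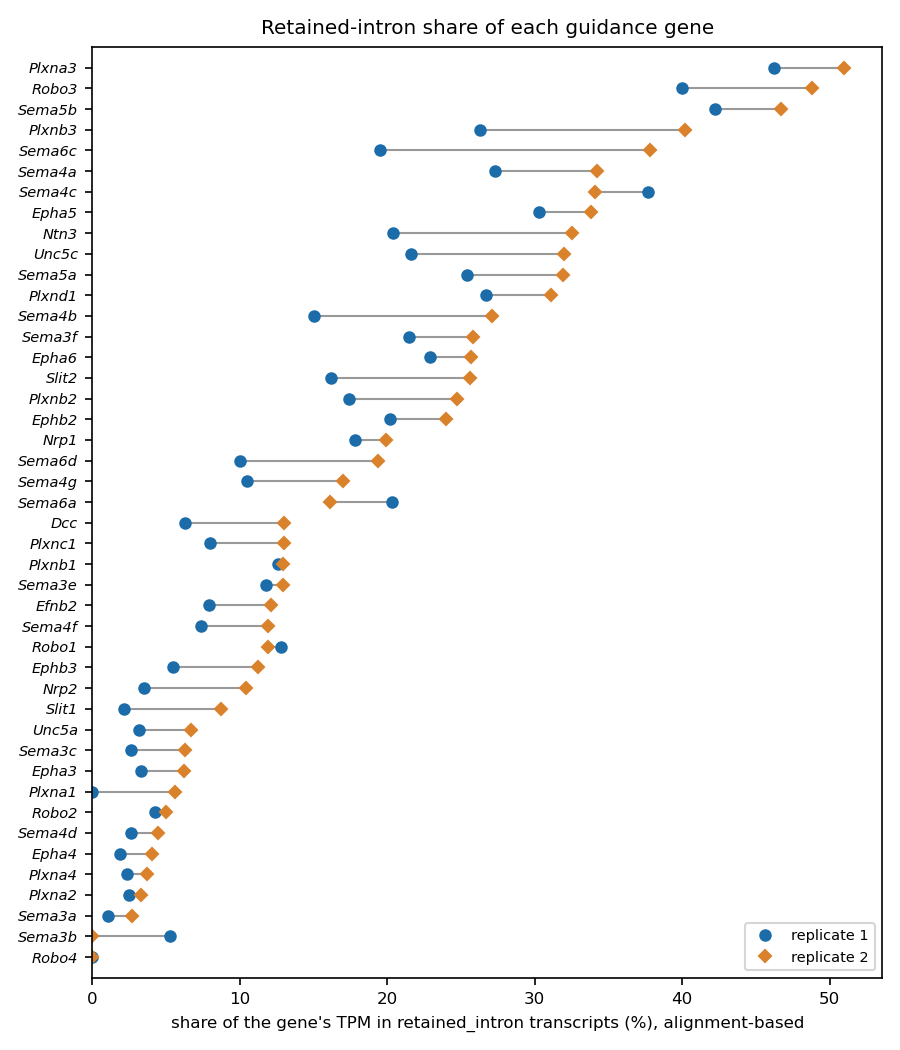
Share of each gene's TPM (percent) in retained_intron transcripts of the alignment-based tables, for the 44 guidance genes with such a transcript; circles are replicate 1 and diamonds replicate 2. Diamonds lie to the right of circles for 39 genes, and Plxna3 has the highest share in both libraries.

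In the genome the members were long genes. Their median span was 46.3 kb, against 17.3 kb over all nuclear protein-coding genes, and they had a median of 5 annotated transcripts against 3. There were 7 of 69 members of 500 kb or more, where 1.04% of all nuclear protein-coding genes were, among them Dcc at 1097.4 kb, Epha6, Robo1 and Robo2. The members lay on 18 autosomes and the X chromosome, with 7 on each of chromosomes 5 and 9. Exons of 18 members overlapped exons of another annotated gene, on the opposite strand for 15 of them. Whether reads there were counted for the other gene was not tested. Fractional counts, which mark reads shared with another gene, occurred in 2 members, Plxnc1 and Sema3a. Neither was among the 15 with an overlap on the opposite strand. No share over all protein-coding genes stands beside the overlaps or the fractional counts, so whether these numbers are usual is not known.

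The alignment-free tables gave higher levels throughout. All 69 members were higher there in both libraries, with a median ratio of 1.58 over the members at 1 TPM or more, against 1.62 over all protein-coding genes at that level. Sema4a was the only one of those members above 2 times in both libraries. It had 72.0 TPM in replicate 1 and 101 in replicate 2, or 2.21 and 2.64 times its level in the gene table. The shares of all protein-coding genes that were higher, or above 2 times, are not given here. Epha2, below 1 TPM in the gene table, had 2.69 and 5.98 TPM there, most of it in the processed_transcript Epha2-204 (65.0% and 65.4%). The 10 members with the highest mean were the same in both kinds of table, but their order was not. By alignment-free values Ephb6, with 96.8 and 105 TPM, lay above Robo2, with 85.6 and 84.6 TPM.

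The partners of these genes inside and beside the cell were present as well. Of 67 co-receptors, alternative ligands and signalling proteins of axon guidance, 66 were at 1 TPM or above in each library, their median was 31.1 ± 2.13 TPM, and 0 of them were 2-fold or more apart between the libraries. Over all protein-coding genes 58.3% were at 1 TPM or above, and of all genes compared 5.46% were 2-fold apart, or 1.03% of those whose mean count was at least 100. The highest were Chn1, a Rac regulator downstream of Epha4, at 678 ± 44.7 TPM, the actin-severing Cfl1 at 539 ± 31.5 TPM, and Dpysl2, a mediator of Sema3a signals, at 279 ± 7.37 TPM. Neo1, a netrin receptor related to Dcc, had 31.0 TPM in replicate 1 and 32.6 in replicate 2, and both values were above those of Dcc. Draxin, a netrin-binding guidance factor, was the only one below 1 TPM, with 0.08 and 0.05 TPM.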

How the data were processed

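Total RNA-seq tables of 2 libraries of 1 group were analysed. Per the text deposited with each library, values refer to mm10 and GENCODE M21. The gene table and 1 transcript table were derived from an alignment to the transcriptome; the second transcript table was derived from the read file and an index and is called alignment-free. For aligner, quantifiers, versions and strand setting, the sources used here give nothing. Per the file headers, the authors' tables hold expected counts, estimated counts, TPM and transcript shares in percent; the deposited gene table also gives posterior mean TPM and the bounds of an interval around TPM, a signal in TPM computed by the authors. TPM is scaled over every entry of a table, spike-ins and short RNAs included. Reads off genes, 0.452% of counts in replicate 1 and 0.406% in replicate 2, were left out of library sizes. The limit behind a count of 0 is 3 counts, or 0.0927 CPM in replicate 1 and 0.121 CPM in replicate 2; floors and intervals cover counting error only.

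Rounded expected counts of genes whose mean count was at least 10 entered the comparison, and log2 ratios came from edgeR 4.0.16 (R 4.3.3) with TMM scaling and a prior count of 2. Intervals are exact Clopper-Pearson (scipy 1.17.1). Transcript TPM was summed to genes and shares were recomputed from it. Coding bases and sequences were read from GENCODE M21 exons, coding features and transcript sequences. The ratio script was tested on simulated data with known changes. No test between groups was possible.

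Members and gene lists were chosen with earlier results of these data known. Named genes were all members of families of 5 or fewer, otherwise the 4 highest and any below 1 TPM, the 5 largest library ratios each way among members whose mean count was at least 100, members whose leading transcript differed between libraries in both kinds of table, and those over 2 times or under 1/2 of the gene table in the alignment-free tables. Further members are given by their means, and isoform genes were chosen after their values were seen.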

Additional observations from a re-analysis of the deposited data

How the results depend on the processing

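No paired analysis was possible because there is only 1 group. The 66 members called expressed became 67 at 0.5 TPM, 63 at 2 TPM, and 66 or 67 in the other settings run, including each library alone. The median level of 11 TPM became 19 TPM with alignment-free values, 24.9 TPM when TPM was rescaled over nuclear protein-coding genes, 12.2 TPM over members with a mean of 1 TPM or more and 11.6 TPM with posterior means; with one library left out it ranged from 10.5 to 11.4 TPM. The number of members past 2-fold was 0 with RLE size factors, with no filter, with a mean of 100 counts, with a prior count of 0.5 and with alignment-free counts, and 3 members were past a fold of 1.5. The median log2 ratio ranged from -0.09 to -0.02. The median counting half-width of a single member's ratio was 0.13, which is not the error of the median over members. The leading transcript was shared throughout by 38 members at 5 TPM or more and by 33 with protein_coding transcripts alone, out of 49 and 47 compared. Of the 55 named levels, all moved by more than 1 SD in the alignment-free tables and on rescaling. Rescaling multiplies every level of a library by the same factor, so its moves say nothing of relative levels. The alignment-free values were higher for all 69 members, with a median ratio of 1.58 over those expressed. Of 53 named ratios, 53 stayed within their counting interval with RLE and 48 with alignment-free counts. With 2 libraries no sample can be called an outlier, and spread rests on 1 difference per gene.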
